A study of Macaca mulatta with 32 samples.

Results

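Circular RNAs (circRNAs) of 9 MAP kinase cascade genes were examined in the brain of the rhesus macaque. The members were all circRNAs of the table whose host gene symbol was MAP2K4, MAP2K5, MAP3K5, MAP3K7, MAP3K9, MAP4K3, MAP4K4, MAP4K5 or TAOK1, which made 181 of 52828 circRNAs. The 32 libraries covered 8 regions, namely the cerebellar cortex (CB), the CA1 field and the dentate gyrus (DG) of the hippocampus, and the occipital (OC), parietal (PC), temporal (TC), prefrontal (PFC) and posterior cingulate (PCC) cortex. Each region had 4 libraries, one from each of the pools 10F, 10M, 20F and 20M, that is, females and males of 10 and 20 years. A pool was the mixed RNA of 2 animals of the same sex and age, so 8 healthy, socially housed animals stood behind all libraries, and differences between the 2 animals of a pool were not measured. The RNA was total RNA of whole tissue pieces treated with RNase R, an exonuclease that degrades linear RNA and leaves most circles intact. In such bulk tissue, fewer cells of a type and less RNA per cell cannot be told apart.

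MAP kinase cascades are relays of protein kinases in which each tier phosphorylates and activates the next. The MAP4Ks act at the top, the MAP3Ks, to which the TAO kinases belong by function, below them, and the MAP2Ks phosphorylate the terminal MAP kinases such as JNK, p38 and ERK5. In neurons and glia these relays respond to stress, cytokines and growth factors. A circRNA forms when the spliceosome joins the 3′ end of an exon back to the 5′ end of the same or an earlier exon, so that a gene can give many circles that differ in their ends. Circles were counted here by reads that cross this back-splice junction. The value of a circRNA is its junction reads times a constant of the library, in a unit that the authors named TPM. It refers to one junction, and the length of the circle does not enter it.

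The study's list of primers held 5 of the member circRNAs. These pairs are shown because they were designed as divergent primers, which point away from each other on linear RNA and face each other across the back-splice junction that defines the circle. Capitals mark the stretch that 2 pairs for the same circle have in common, and pairs without capitals have no such partner. The primers served the paper's quantitative PCR of circles that it had selected from the sequencing of these libraries. Membership of a list named below is therefore not independent evidence of a direction. The PCR results are separate evidence and were not re-examined here. Each line gives the forward primer or the reverse primer, 5′ to 3′, with the position of the circle in the coordinates of the table.
MAP4K3 chr13:39334543-39340482, minus strand, forward: tggtcatgtgaaattggctgat
MAP4K3 chr13:39334543-39340482, reverse: gcagttctgacagaggtcca
MAP3K7 chr4:86462308-86465534, minus strand, list of CA1-enriched circles, forward: ttattgtaGAGCTTCGGCAGTT
MAP3K7 chr4:86462308-86465534, list of CA1-enriched circles, reverse: tccaaAGGCTCCTCTTCCAA
MAP3K7 chr4:86462308-86465534, list of male-biased circles, forward: GAGCTTCGGCAGTTatcc
MAP3K7 chr4:86462308-86465534, list of male-biased circles, reverse: AGGCTCCTCTTCCAAcaa
MAP3K9 chr7:133851636-133851816, minus strand, list enriched at 20 y, forward: ATGGCACCCGAAGTCatcc
MAP3K9 chr7:133851636-133851816, second pair for the circle, forward: ttggATGGCACCCGAAGTC
MAP3K9 chr7:133851636-133851816, both pairs, reverse: GAATCTTGTTGCTCAGGTCTCC
TAOK1 chr16:24700319-24709151, plus strand, list enriched at 20 y, forward: caaaggctgttatctacgtgaa
TAOK1 chr16:24700319-24709151, reverse: atatcctgccatttctcagtag
MAP4K5 chr7:113540936-113541115, minus strand, list enriched at 20 y, forward: ttattgacagaccatggcgat
MAP4K5 chr7:113540936-113541115, reverse: ttgcctttagtatgcaaatagg
The 2 MAP3K7 pairs shared 14 bases of the forward and 15 bases of the reverse primer, so both read the same junction. The 2 MAP3K9 pairs shared 15 bases of the forward primer and all 22 of the reverse. For the second MAP3K9 pair the study's list held no position, and it was placed on this circle through the shared bases only. All 5 circles matched 1 row of the table each by position and strand.

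The libraries held between 18813 (CB_10F) and 894932 (PCC_20F) back-splice reads in all. One read was worth 18.7 TPM in CB_10F and 0.29 TPM in CA1_20M, and the number of member circRNAs found in a library ran from 10 in CB_10F to 40 in CB_20F. The smallest value above 0 was 2 reads. Taken as no read, a listed 0 allowed a level of up to 56.2 TPM in CB_10F and 0.86 TPM in CA1_20M (3 reads, counting error only). A single read was also listed as 0, so the true limits are somewhat higher. More than 95% of the sequenced reads had passed as clean in 5 libraries, namely CA1_20M, DG_20M, PC_10M, PCC_20F and PFC_20F. Their depth was greater (median 430956 back-splice reads, and 166099 in the remaining 27), and 4 of them were from 20 y animals, so results on age are given with and without them. The region labels were checked against circles of marker genes. The 5 of 11 cerebellar genes that had circRNAs summed to between 122 and 249 TPM in the 4 CB libraries and to at most 71.2 TPM elsewhere. The markers of dentate granule cells (2 listed) and of microglia (5 listed) had no circRNA in the table, so those could not be checked.

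Together the members held 26541 back-splice reads, 0.371% of the 7159279 in the table. Of the 181 circRNAs, 160 were classed as exonic and 21 as intronic. A filter on low counts kept 71 of them (39.2%) for testing, against 32.3% of all circRNAs, and the kept circles held 95.6% of the members' reads. The filter kept 27 through expression in 2 regions, 5 through expression in 1 region and 39 through a total of at least 30 reads, so that a few circles entered the tests through the region in which they were high. The 110 circles that were not kept held 1164 reads, and 84 of the 181 were found in a single library. The members gave many circles per gene. Of the 9 genes, 7 had at least 10 circRNAs, against 14.96% of all 8047 host gene symbols, whose median was 3. Their exonic circles were also long, with a median span of 15234 bases of genome against 6193 bases for all exonic circles. The genes were chosen with earlier results of these data known, so these comparisons describe the chosen genes only. Of 75 other genes of the cascades, 45 had any circRNA.

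Reads were concentrated in 4 of the 9 genes. MAP2K4, MAP2K5, MAP4K3 and MAP3K9 held 22656 reads, or 85.4% of the total. MAP2K4 gave 7114 reads over 13 circRNAs and ranked 138 among all host genes by reads. MAP2K5 gave 6373 reads over 41 circRNAs, and MAP4K3 gave 6088 reads over 39. MAP3K9 gave 3081 reads over only 9 circRNAs. The other 5 genes lay between 405 reads (MAP4K4) and 1250 reads (MAP3K5).

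**Figure D1:**
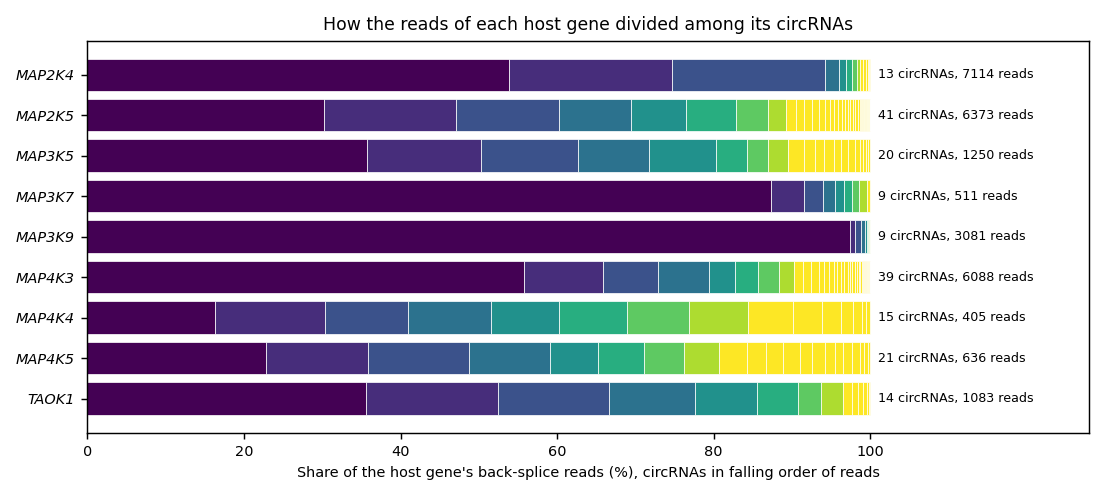
Share of each host gene's back-splice reads (%, horizontal axis) taken by each of its circRNAs over the 32 libraries, from the largest circle on the left to the smallest on the right, with the number of circRNAs and reads at the end of each bar. MAP3K9 and MAP3K7 were led by a single circle with 97.4% and 87.3% of reads, whereas the largest circle of MAP4K4 held 16.3%.

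At the top of the cascade, MAP4K3, a kinase linked to nutrient sensing and JNK activation, was the gene of its tier with most circles. It lies on the minus strand of chromosome 13 (ENSMMUG00000013901). Its leading circle, chr13:39334543-39340482, whose primers are shown above, spanned 5940 bases, was found in 29 libraries and held 3395 reads, or 55.8% of the gene's total. The study's list of primers named it as specific to CIRI2, that is, not detected by find_circ, the paper's other program for calling circles. The second circle, chr13:39346329-39382104, held 10.2%. The 3′ end of the leading circle at position 39334543 was used by 6 circRNAs with 61.1% of reads. The summed circRNA level of MAP4K3 averaged 178 ± 80.5 TPM (SD, n = 32) and ran from 28.8 TPM in DG_20F to 380 TPM in PCC_10M.

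MAP4K4 and MAP4K5, both upstream kinases of the JNK branch, gave far fewer reads. MAP4K4 (ENSMMUG00000010811, chromosome 13, plus strand) had 15 circRNAs and 405 reads, and no circle led. The largest, chr13:101809388-101813238, held 16.3% and was found in 4 libraries. The gene's summed level had a median of 3.98 TPM over the 32 libraries, was listed at 0 in 14, and reached 85.3 TPM in PCC_20M. MAP4K5 (ENSMMUG00000020550, chromosome 7, minus strand) had 21 circRNAs and 636 reads. Its largest circle, chr7:113488889-113491744, held 22.8% and was found in 9 libraries, and the summed level had a median of 15.1 TPM, with 9 libraries at 0 and a highest value of 60.2 TPM in DG_10F. TAOK1 (ENSMMUG00000019667, chromosome 16, plus strand), a kinase of the MAP3K tier that activates p38 through MAP2Ks and acts on microtubules, had 14 circRNAs and 1083 reads. Its leading circle, chr16:24700319-24709151, held 35.6% of reads and was found in 15 libraries. The TAOK1 sum ran from 0 in 6 libraries to 103.7 TPM in CB_10M, with a median of 21.1 TPM.

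The 3 kinases named MAP3K divided their reads in different ways. MAP3K9, a mixed-lineage kinase (ENSMMUG00000005786, chromosome 7, minus strand), was nearly a gene of 1 circle. The circle chr7:133851636-133851816 spanned 181 bases, was found in 31 of 32 libraries and held 3001 of 3081 reads (97.4%). MAP3K7, the TGF-beta-activated kinase known as TAK1 (ENSMMUG00000006512, chromosome 4, minus strand), was also led by 1 circle, chr4:86462308-86465534, with 446 of 511 reads (87.3%) in 22 libraries. MAP3K5, the stress-activated kinase known as ASK1 (ENSMMUG00000016376, chromosome 4, plus strand), spread 1250 reads over 20 circRNAs. Its leader, chr4:127135128-127139671, held 35.8%. Circles of MAP3K5 shared their ends, since 5 of them began at 127135128 (51.0% of reads) and 3 ended at 127139671 (58.9%). The summed levels averaged 130 ± 86.7 TPM for MAP3K9, 25.2 ± 23.0 TPM for MAP3K7 and 41.1 ± 35.1 TPM for MAP3K5 (SD, n = 32 each).

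Among the MAP2Ks, MAP2K4, which phosphorylates JNK and p38, showed the simplest rule of ends. The gene lies on the plus strand of chromosome 16 (ENSMMUG00000019842). One 5′ end, at 11803158, was used by 8 of its 13 circRNAs and carried 96.2% of its reads. From it, circles closed at 3 main 3′ ends. The circle closing at 11829436 held 3831 reads (53.9%), that at 11842999 held 1486 reads (20.9%) and that at 11860858 held 1385 reads, with spans of 26279, 39842 and 57701 bases. A further circle with 49 reads closed at 11829440, 4 bases from the main end, and was counted apart as in the table. MAP2K5, the activator of ERK5 (ENSMMUG00000014482, chromosome 7, plus strand), had the most circles of the family. Its leading circle, chr7:46252188-46332120, spanned 79933 bases and held 30.3% of reads, and the second, chr7:46277133-46287147, held 16.8%. Here 2 5′ ends shared the reads, 46252188 with 38.8% and 46277133 with 38.7%, and the 3′ end 46332120 was used by 5 circles with 49.1%. The sums averaged 199 ± 85.0 TPM for MAP2K4 and 187 ± 87.7 TPM for MAP2K5 (SD, n = 32 each), and neither was at 0 in any library.

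**Figure D2:**
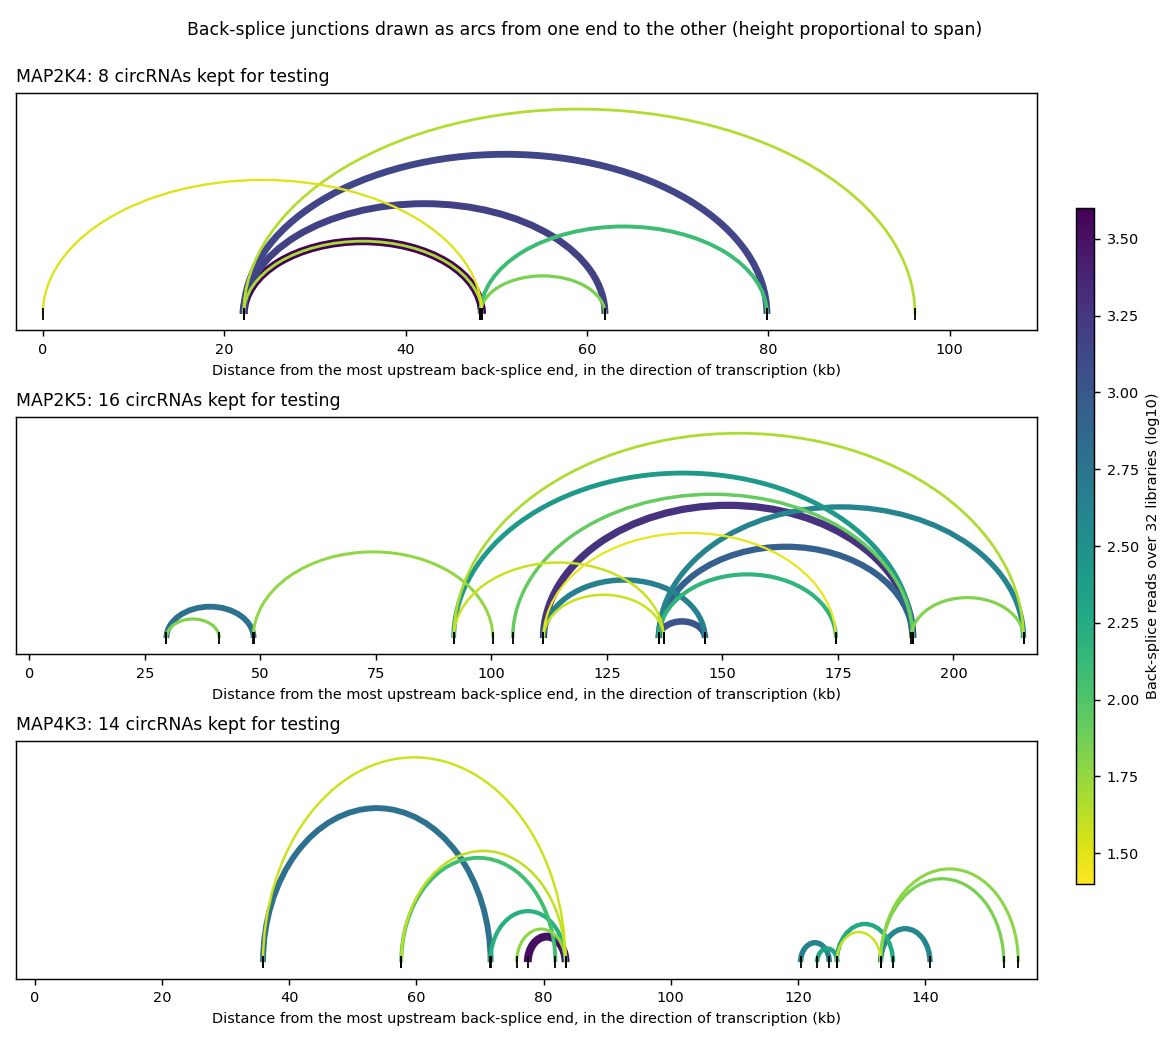
Back-splice junctions of the kept circRNAs of MAP2K4 (8), MAP2K5 (16) and MAP4K3 (14), drawn as arcs between their ends against the distance in kb from the most upstream back-splice end of the gene. Arc height is proportional to span, and colour and width give the back-splice reads over 32 libraries on a log10 scale; the thick arcs of MAP2K4 leave from one common 5′ end, and those of MAP2K5 from 2.

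The summed circRNA level of each gene was compared between regions, which answers whether a region carried more circRNA of the gene than the other 7. By limma on log2 values, no region passed an adjusted p of 0.05 for any of the 9 genes, and 8.03% of 3834 host gene sums passed in at least 1 region. In 4 of the 72 pairs of gene and region (5.56%) the unadjusted p was under 0.05, against 9.14% of all such pairs in the table. MAP3K7 read 7.45, 0, 0 and 2.52 TPM in the 10F, 10M, 20F and 20M libraries of PFC, against 28.4 ± 22.8 TPM in the other 28 (log2 difference −2.36 ± 0.76 SE, limma adjusted p = 0.39). MAP3K7 was highest in CA1, with 33.5, 58.2, 96.3 and 18.4 TPM (mean 51.6, limma adjusted p = 0.679). TAOK1 was also highest in CA1, where its 4 libraries read 88.4, 40.02, 83.8 and 63.4 TPM against 25.8 ± 25.5 TPM elsewhere (log2 difference 2.04 ± 0.81 SE, limma adjusted p = 0.511). TAOK1 was lowest in PCC, at 0 in 3 libraries and 40.9 TPM in PCC_20F (limma adjusted p = 0.548). None of these values passed the adjusted test.

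The order of the regions differed from gene to gene. MAP2K4 averaged 283 TPM in PC and 277 TPM in PFC and was lowest in TC (133 TPM). MAP2K5 was highest in TC (264 TPM) and lowest in CB (111 TPM). MAP3K5 ran from 73.6 TPM in TC to 22.5 TPM in PCC, and MAP3K9 from 188 TPM in TC to 62.7 TPM in PFC. MAP4K3 had its highest mean in PCC (240 TPM) and its lowest in DG (116 TPM), where the 4 libraries ran from 28.8 to 270 TPM. MAP4K4 averaged 29.4 TPM in PCC, carried by 85.3 TPM in PCC_20M, and 3.82 TPM in CB. MAP4K5 averaged 27.0 TPM in CB and 8.46 TPM in PFC. For every gene, neighbours in the order of regions overlapped in the ranges of their 4 libraries, except PC and PFC of MAP3K7, whose nearest values were 7.78 and 7.45 TPM.

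**Figure D3:**
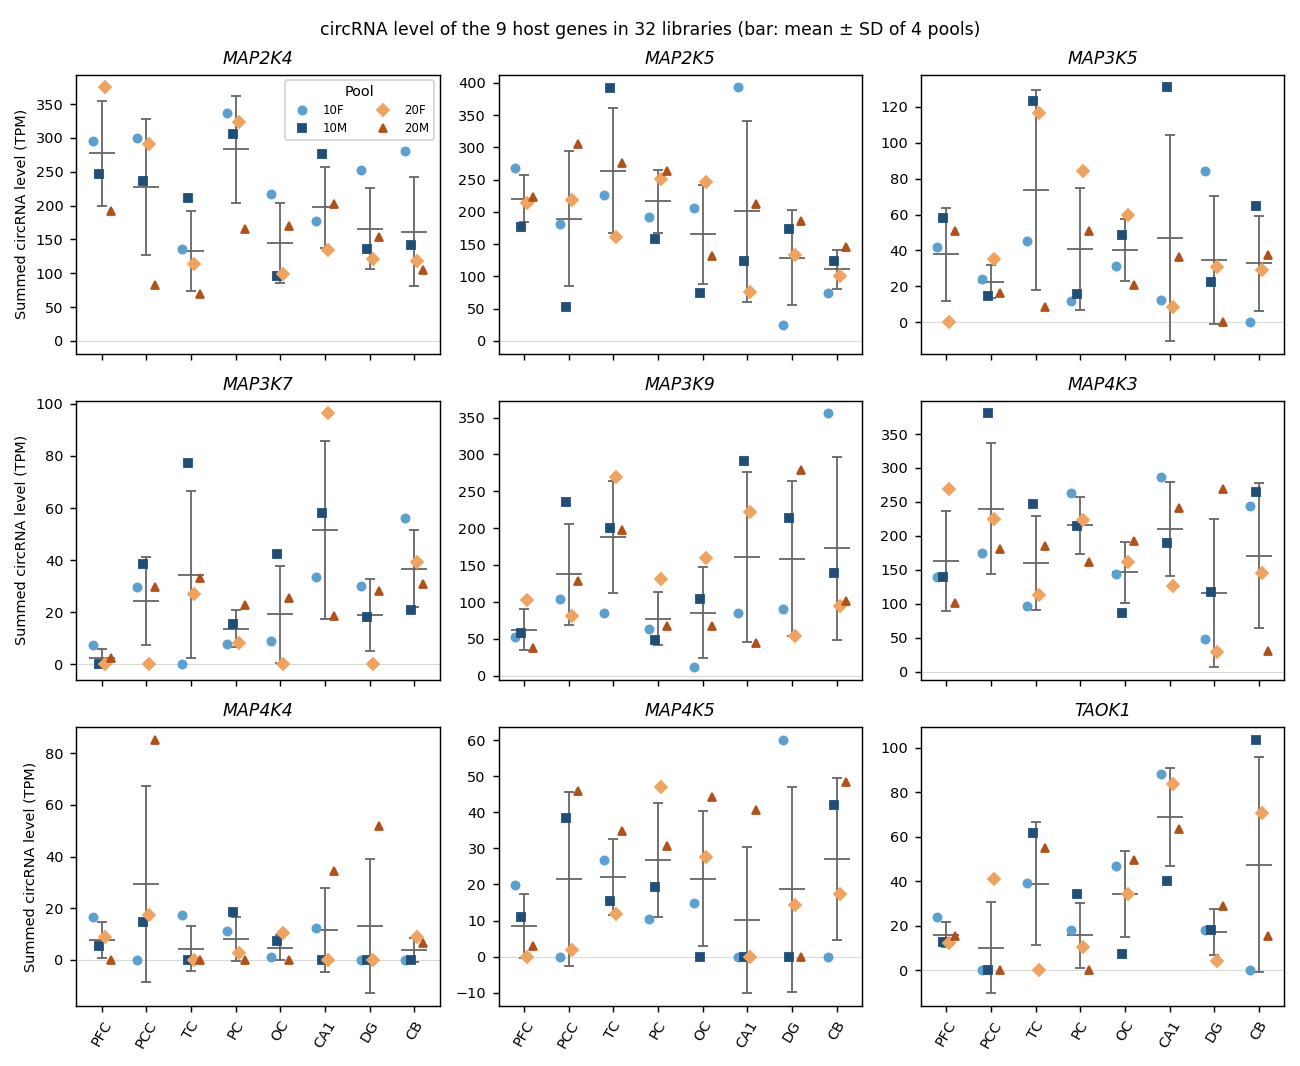
Summed circRNA level (TPM, linear axis) of each of the 9 host genes in the 32 libraries, by region, with a marker for each pool and a bar for the mean ± SD of the 4 pools. MAP3K7 lies below 8 TPM in all 4 PFC libraries, and the 4 CA1 libraries of TAOK1 lie between 40.02 and 88.4 TPM.

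Which circle led a gene depended on the library in the genes with several circles. In 150 pairs of library and gene with at least 30 reads of the gene, the leading circle was listed at 0 in 18. For MAP3K9 and MAP3K7 this did not occur, and the leader of MAP3K9 never held less than 81.6% in such a library. The MAP2K4 leader was at 0 in PC_20M (0 of 130 MAP2K4 reads), TC_20M (0 of 48) and DG_10M (0 of 30). In PC_20M this allows a share of 2.31% or somewhat more. The leader was also at 0 in PCC_20M, where MAP2K4 had fewer than 30 reads. These were all male libraries, and 3 of them were of the pool 20M. In the other 28 libraries the leader was found. The median share over the 4 libraries of a region lay between 35.8% in PCC and 67.5% in CB, and the ranges of the regions overlapped.

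In CB the leaders of MAP2K5 and MAP4K3 took a smaller part of their gene's reads. The MAP2K5 leader held 14 of 245 reads in CB (5.7%, 95% Clopper-Pearson interval 3.2 to 9.4%) and 31.2% in the other regions together. All 14 reads were from CB_10M, and the leader was at 0 in CB_20F (0 of 93 reads), CB_20M (0 of 66) and CB_10F (0 of 4). The circle chr7:46277133-46287147 was the largest of MAP2K5 in CB, with 38.8% of reads against 15.9% elsewhere. It also held more reads than the leader in OC (35.3% against 26.6%) and in TC (24.1% against 19.2%). The MAP4K3 leader held 78 of 337 reads in CB (23.1%, interval 18.7 to 28.02%) and 57.7% elsewhere. It was at 0 in CB_20F (0 of 134 reads, which allows 2.24% or somewhat more) and CB_20M (0 of 14). It was present in CB_10F and CB_10M. The second circle, chr13:39346329-39382104, held 21.4% in CB against 9.5% elsewhere and read 93.6, 18.03, 47.8 and 24.2 TPM in the 4 CB libraries. These intervals cover counting error only. The shares were not tested across libraries, and outside CB single libraries also had the MAP2K5 leader at 0, namely PFC_20F (0 of 263 reads), PCC_10F (0 of 129) and OC_10M (0 of 72).

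**Figure D4:**
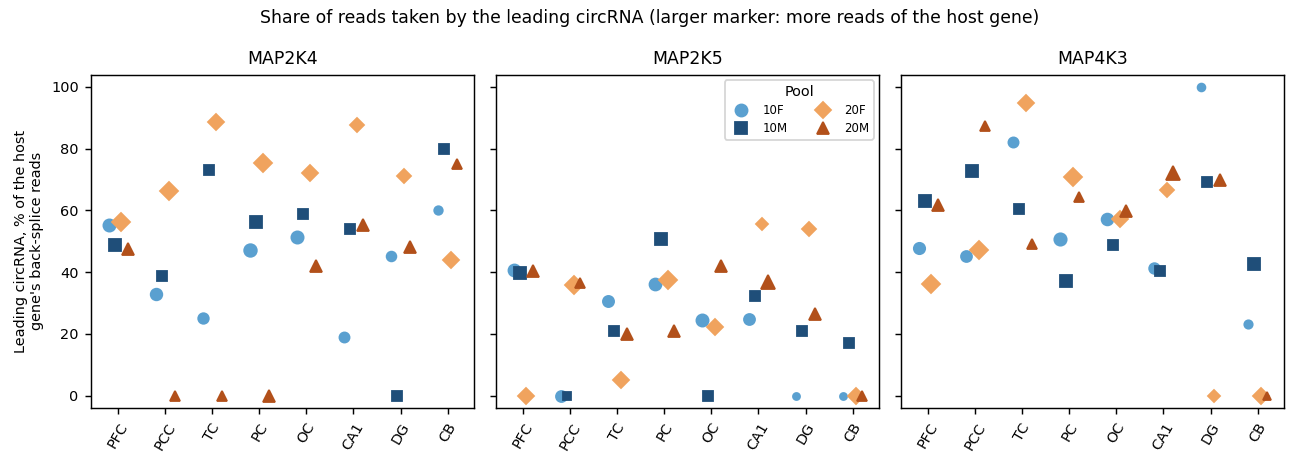
Share of the host gene's back-splice reads (%, vertical axis) held by the leading circRNA of MAP2K4, MAP2K5 and MAP4K3 in each of the 32 libraries, by region and pool, with larger markers for libraries with more reads of the gene. In CB the MAP2K5 leader is at 0% in 3 of 4 libraries and the MAP4K3 leader in 2 of 4, and the MAP2K4 leader is at 0% in 4 male libraries. MAP2K5 had only 4 reads in CB_10F.

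Single circRNAs were then compared between each region and the other 7. Of the 71 kept members, 2 were higher in a region by an exact permutation test at p under 0.01, as against 8.49% of the 17050 kept circRNAs. The first was the MAP4K3 circle chr13:39277252-39285023 in PCC. It read 9.84, 56.0, 44.9 and 23.0 TPM in the 10F, 10M, 20F and 20M libraries of PCC. Their mean of 33.4 ± 20.9 TPM (SD of 4 libraries) compared with 7.43 ± 9.47 TPM in the other 28 (exact permutation test, p = 0.00161). The PCC libraries lay above most others, but PCC_10F and PCC_20M overlapped with the rest, where PC_10F read 28.5 TPM and PFC_20F 27.7 TPM. Without the pool 10M the p-value of this exact test was 0.0178, and without 20F it was 0.0143. Without the 5 libraries over 95% clean it was 0.0126.

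The second was the largest MAP4K5 circle, chr7:113488889-113491744, in CB. It was at 0 in CB_10F and read 31.6, 14.1 and 19.8 TPM in CB_10M, CB_20F and CB_20M, a mean of 16.4 ± 13.1 TPM (SD of 4 libraries). In the other 28 libraries it averaged 3.14 ± 6.68 TPM and was found in 6 (exact permutation test, p = 0.00968). The groups overlapped, and the p-value of the exact test was 0.121 without the pool 10M and 0.0316 without 20F or 20M. It was also above 0.01 without the 5 libraries over 95% clean (exact p = 0.0164) and after either rescaling of the libraries (exact p = 0.0236 and 0.0132).

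By limma, 1 of 71 members passed an adjusted p of 0.05 in any region, against 3.85% of all kept circRNAs, and in CB alone the share of all was 2.67%. This was the MAP4K3 circle chr13:39263368-39285023, which was higher in CB and ends within the gene at the same 5′ end, 39285023, as the circle that was higher in PCC. It read 37.4, 6.01, 16.3 and 0 TPM in the 4 CB libraries. The mean was 14.9 ± 16.4 TPM (SD of 4 libraries) against 1.52 ± 5.22 TPM elsewhere (log2 difference 1.91 ± 0.54 SE, limma adjusted p = 0.0489). The value 37.4 TPM came from CB_10F, the shallowest library, where it stood for 2 reads. Without the pool 10F the limma adjusted p was 0.22, and without each of the other pools it lay between 0.0516 and 0.315. It missed 0.05 in 11 of the 12 alternatives run.

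The leading circles of MAP2K5 and MAP4K3 were also low in CB by level. The MAP2K5 leader read 0, 21.0, 0 and 0 TPM in CB_10F, CB_10M, CB_20F and CB_20M, against a mean of 55.3 ± 34.5 TPM in the other 28 libraries, of which 23 had it. The 0 in CB_10F allows 56.2 TPM or somewhat more, so it does not place CB_10F below the mean elsewhere. With this 0 counted, the leader was lower in CB by the exact permutation test (p = 0.00706). In CB 583 of the 17050 circRNAs passed that test, 546 of them in the higher direction. The MAP2K5 difference rests on low values in CB_10M, CB_20F and CB_20M. The MAP2K5 leader did not pass limma, with a log2 difference of −3.05 and an adjusted p of 0.109, and in every fit without 1 pool the p-value of the exact test was above 0.01 (0.0114 to 0.0682), as after either rescaling (0.0165 and 0.0234) and without the 5 libraries over 95% clean (0.0107). The MAP4K3 leader read 56.2, 113, 0 and 0 TPM in CB against 105 ± 53.2 TPM elsewhere (log2 difference −2.66 ± 0.76 SE, limma adjusted p = 0.0531). It passed in 3 alternatives, with limma adjusted p of 0.0248 after scaling libraries to the same total, 0.0331 after division by size factors and 0.0395 among circRNAs above 0 in at least 16 libraries. Markers of other cell types moved with CB as well. The circles of 6 of 6 neuronal markers summed to between 10.9 and 45.1 TPM in CB (mean 27.2), and the means of the other regions ran from 52.4 TPM in PC to 97.4 TPM in PCC, with ranges that overlapped CB in PC, PFC and CA1. The markers moved apart, since CAMK2A was at 0 in CB and GRIN2B averaged 1.09 TPM, while SYT1 had its highest regional mean there (13.6 TPM). Circles of 4 of 5 astrocyte markers were at 0 in all 4 CB libraries. They were low elsewhere too, with regional means from 5.2 TPM in PCC to 23.4 TPM in PC. Libraries at 0 also occurred in every other region except PC. The cerebellar markers are given above. The part of these markers in the differences was not tested.

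In DG only 10 of 71 members had a higher mean than elsewhere (14.1%), against 23.5% of all kept circRNAs, and no member reached an unadjusted p of 0.05 by limma, which 6.04% of all did. In CA1 the MAP3K7 leader read 33.5, 58.2, 62.8 and 18.4 TPM. It stood on the study's list of CA1-enriched circles, which is not independent of these libraries. Its CA1 mean of 43.2 ± 20.9 TPM (SD of 4 libraries) compared with 16.7 ± 17.9 TPM elsewhere, with an exact permutation p of 0.0127 and a limma adjusted p of 0.543, so it did not pass either threshold. Circles of 5 of 7 oligodendrocyte markers summed to 43.1 TPM on average in CA1, where they ran from 15.2 to 91.0 TPM, and to 0 in all 4 libraries of PFC and of TC. The markers moved apart. MOG (22.6 TPM), ST18 (10.9 TPM) and MBP (5.9 TPM) had their highest regional mean in CA1. MAG and MOBP had theirs in PCC, with 16.6 and 6.56 TPM there and 3.81 and 0 TPM in CA1. The MAP3K7 sum was lowest in PFC, but in TC it averaged 34.4 TPM. Their part in the MAP3K7 values was not tested.

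**Figure D5:**
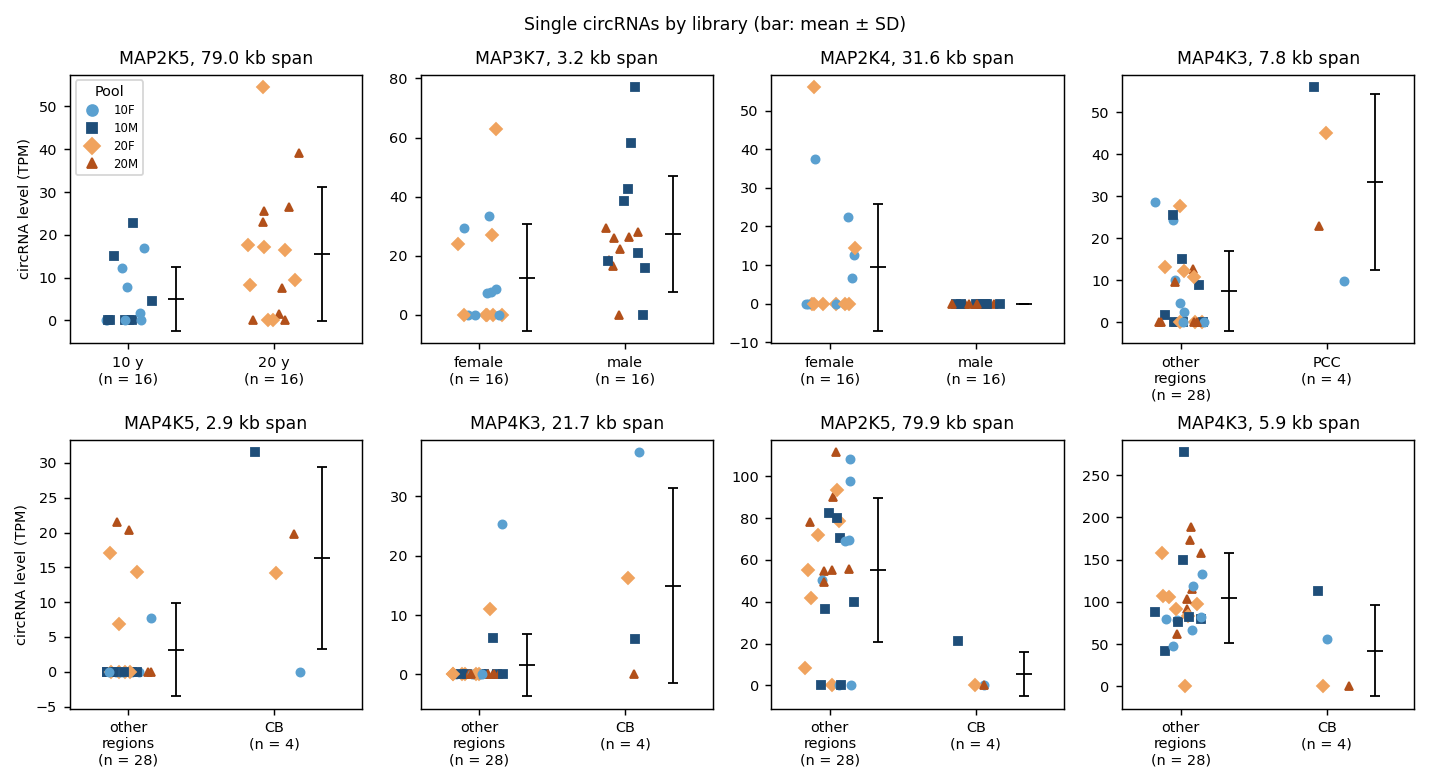
Level (TPM, linear axis) of 8 single circRNAs in every library, with a marker for each pool, grouped by age, sex or region, and bars for the mean ± SD of each group. All 16 male libraries are at 0 for the MAP2K4 circle of 31.6 kb span, and 3 of 4 CB libraries are at 0 for the MAP2K5 leader of 79.9 kb span. A 0 in CB_10F allows 56.2 TPM or somewhat more.

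Age was compared between the 16 libraries of 20 y and the 16 of 10 y, which rest on 4 pools, so the p-values measure the spread between libraries that share animals. By the study's unpaired t-test at an unadjusted p under 0.05, 1 of 71 members differed, against 2.97% of all kept circRNAs. It was the MAP2K5 circle chr7:46277133-46356092, which starts at the second main 5′ end of the gene. It was found in 12 of 16 libraries at 20 y, where it ran from 0 to 54.6 TPM with a median of 13.0 TPM, and in 7 of 16 at 10 y, where it ran from 0 to 22.7 TPM with a median of 0. The means were 15.4 ± 15.7 TPM at 20 y and 5.05 ± 7.53 TPM at 10 y (t-test p = 0.0232, permutation p = 0.020). Both pools of 20 y (15.5 and 15.4 TPM) lay above both pools of 10 y (4.83 and 5.28 TPM). The groups overlapped, the limma adjusted p was 0.81, and without the 5 libraries over 95% clean the means were 12.5 and 5.39 TPM (permutation p = 0.080). Without the pool 10F the t-test p was 0.104, without 10M 0.0823, without region TC 0.101, without PC 0.0672, and paired by region and sex 0.0542.

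A second circle of the same 5′ end, chr7:46277133-46332120, averaged 30.8 TPM at 20 y and 14.8 TPM at 10 y (permutation p = 0.061), while chr7:46232746-46332120 averaged 4.65 and 16.2 TPM (permutation p = 0.069). The summed level of MAP2K5 was 197 ± 66.1 TPM at 20 y and 178 ± 106 TPM at 10 y (permutation p = 0.548). The 3 circles on the study's list of enrichment at 20 y are given as levels. The MAP3K9 circle averaged 126 ± 77.4 TPM at 20 y and 130 ± 96.8 TPM at 10 y (permutation p = 0.893). These levels cover all 8 regions, whereas the paper's quantitative PCR of a MAP3K9 circle was in hippocampus, so the values are not directly comparable. In CA1_20F, CA1_20M, DG_20F and DG_20M the circle read 222, 44.4, 47.2 and 272 TPM. The matching libraries of 10 y read 85.3, 262, 90.2 and 214 TPM. Age within the hippocampus was not tested for this circle. The TAOK1 circle averaged 17.3 ± 19.8 and 8.65 ± 16.9 TPM (permutation p = 0.198), and was found in 9 and 6 libraries. The MAP4K5 circle chr7:113540936-113541115 was at 0 in all 16 libraries of 10 y and was found in 5 of 20 y, with 45.9 TPM in PCC_20M, 17.6 in CB_20M, 8.54 in OC_20F, 6.92 in CA1_20M and 5.94 in OC_20M. This circle passed the filter only by its total of 66 reads, all at 20 y, so a test of its age difference is not independent of the filter and no p is given.

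By limma with region and sex as covariates, no member passed an adjusted p of 0.05 for age, and 0.0293% of all kept circRNAs did. At an unadjusted p under 0.05 there were 4 of 71 members (5.63%), near the 5.26% of all. These 4 include the MAP4K5 circle chr7:113540936-113541115, which had passed the filter only through reads at 20 y, so its place in the count is not independent of the filter. The members' median log2 difference was 0.05 against 0.08 for all. By mean, 34 members were higher and 37 lower at 20 y (47.9% higher, against 55.2% of all), which became 39 and 32 when libraries were scaled to the same total. Of the host gene sums, none of the 9 passed limma for age, as in the whole table (0%), and none had an unadjusted p under 0.05. MAP2K4 had the smallest permutation p. Its sum ran from 69.6 to 375 TPM at 20 y (170 ± 88.9 TPM) and from 95.2 to 336 TPM at 10 y (228 ± 72.4 TPM), with a permutation p of 0.052 and a limma adjusted p of 0.825. Without the 5 libraries over 95% clean the means were 141 and 223 TPM (permutation p = 0.007).

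Sex was compared between 16 male and 16 female libraries, and by the t-test 2 of 71 members passed, against 2.94% of all. The second of them, given below, had entered the test only through female libraries. The first was the leading circle of MAP3K7, which was higher in males and stood on the study's list of male-biased circles, a list not independent of these libraries. It was found in 14 of 16 male libraries, with a median of 24.1 TPM and a highest value of 77.2 TPM, and in 8 of 16 female libraries, with a median of 3.73 TPM and a highest value of 62.8 TPM. The means were 27.4 ± 19.6 and 12.6 ± 18.1 TPM (t-test p = 0.0339, permutation p = 0.033). The log2 difference by limma was 1.58 ± 0.47 SE with an adjusted p of 0.746. The difference was larger between the pools of 10 y (33.9 TPM in 10M, 10.9 TPM in 10F) than between those of 20 y (20.9 TPM in 20M, 14.2 TPM in 20F), and without 10M the t-test p was 0.238, without 10F 0.155. It also missed the threshold of the t-test after scaling libraries to the same total (p = 0.144, n = 16 each) and after division by size factors (p = 0.130), and without the 5 libraries over 95% clean the permutation p was 0.070. Leaving out PCC, TC, PC, OC, DG or CB gave a t-test p of 0.0525 to 0.0954. The summed level of MAP3K7 was 28.9 ± 19.2 TPM in males and 21.5 ± 26.4 TPM in females (permutation p = 0.379). The circles of the 5 of 7 oligodendrocyte markers with circRNAs ran from 0 to 91.0 TPM in male libraries (mean 21.1) and from 0 to 25.1 TPM in female libraries (mean 4.60), and their part in the MAP3K7 difference was not tested.

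The second was a minor MAP2K4 circle, chr16:11829262-11860858. It passed the filter only by its total of 124 reads, all of them in female libraries, so it entered the test through the group in which it was high, and its p-values are no support for a difference. It was at 0 in all 16 male libraries and was found in 6 of 16 female libraries, with 6.62 TPM in PFC_10F, 56.2 in PFC_20F, 22.5 in PCC_10F, 12.6 in TC_10F, 14.5 in PC_20F and 37.4 in CB_10F. The female mean was 9.37 ± 16.5 TPM (t-test p = 0.0304, permutation p = 0.018, limma adjusted p = 0.813). Without 10F the t-test p was 0.0812, and without 10M or 20M 0.126. Without region PFC, PCC or CB it was 0.0546, 0.0576 and 0.0657. Most female libraries were at 0 too, so the groups overlapped at 0. The MAP2K4 leader, which was found in 16 female and 12 male libraries, averaged 122 ± 62.4 TPM in females and 80.3 ± 57.2 TPM in males (permutation p = 0.056, limma adjusted p = 0.813). The male mean was 107 TPM in 10M and 53.5 TPM in 20M, the pool in which 3 libraries had the leader at 0.

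By limma no member passed for sex, and none of the 17050 circRNAs did (0%). At an unadjusted p under 0.05 there were 3 of 71 members (4.23%), and 5.31% of all. By mean, 44 members were higher in males and 27 in females (62.0% higher in males, against 52.4% of all). None of the 9 host gene sums passed for sex, as in the whole table (0%), and 1 had an unadjusted p under 0.05, MAP3K7 with a limma adjusted p of 0.698, where 7.12% of all sums had one. Whether the age difference differed between the sexes was tested by the interaction term of limma. No member passed, and 0.0469% of all kept circRNAs did. At an unadjusted p under 0.05 there were 2 members (2.82%), and 5.41% of all. The smallest p among members belonged to the TAOK1 circle chr16:24723790-24726008 (limma adjusted p = 0.813).

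For the rest of the pathway, a list of 75 other genes of the MAP kinase cascades was taken, from the RAF kinases to the MAP kinases and the dual-specificity phosphatases that inactivate them. Of these, 45 had circRNAs, 300 in all with 41109 reads, and 111 circRNAs of 33 genes were kept. For age, 0 of 111 rose and 2 fell by the t-test (1.80%, against 2.97% of all circRNAs). One that fell was a circle of MAPK9, which encodes a JNK, with 50.4 ± 36.0 TPM at 20 y and 109 ± 72.0 TPM at 10 y (t-test p = 0.00676, n = 16 each). For sex, 3 were higher in males and 0 in females (2.70%, against 2.94% of all), namely circles of SPAG9, a JNK scaffold, TNIK and MAP3K3. By limma 0 of 111 passed for age or sex. By limma for regions, 3 of 111 passed, each in one region, and 3.85% of all kept circRNAs passed in some region. A circle of NLK, the nemo-like kinase, was higher in PCC with 56.7 ± 31.8 TPM in 4 libraries against 3.81 ± 7.05 TPM elsewhere (log2 difference 3.67, limma adjusted p = 0.000217). A circle of KSR2, a RAF scaffold, was higher in CA1 with 26.6 ± 16.03 against 1.403 ± 2.65 TPM (log2 difference 2.94, limma adjusted p = 0.000528). A circle of DUSP16, a phosphatase of JNK and p38, was higher in CB with 24.6 ± 13.7 against 4.56 ± 8.61 TPM (log2 difference 2.44, limma adjusted p = 0.0195). By the exact test 8 of 111 were higher in some region (7.21%), against 8.49% of all.

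The host genes whose summed circRNA level was most like that of a member were found by Spearman correlation over the 32 libraries among 2425 host genes. The values are a description, since all genes share the libraries and their depth. The closest pair was MAP2K5 and ACCN1, an acid-sensing ion channel gene, at 0.80. MAP3K9 was most like CDKAL1 (0.75) and YAF2 (0.74), MAP2K4 like STK39 (0.72) and BRWD1 (0.70), and MAP4K3 like DOCK1 and CEP85 (0.69 each). The second gene beside MAP2K5 was GLT1D1 (0.73). MAP3K7 was most like an unnamed gene, ENSMMUG00000030711, and DIP2B (0.67 each). MAP4K5 was most like PIGH (0.67) and the unnamed ENSMMUG00000021729 (0.58). MAP3K5 was most like GTF2IRD1 (0.61) and HP1BP3 (0.59). MLLT4 and CTNNA2 stood beside MAP4K4 (0.56 each), and UBXN7 and ERP44 beside TAOK1 (0.55 each).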

How the data were processed

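The authors removed linear RNA with RNase R, trimmed the reads with Cutadapt, aligned them to a rhesus macaque genome with BWA and called circRNAs with CIRI2 from at least 2 junction reads. The genome build is not given in the sources used here. The values are in TPM as the authors named and deposited them. Within each library every value was within 0.05 TPM of a whole number of reads times 1 constant (100% of values), and reads were recovered from it, 18813 to 894932 per library. CircRNAs were kept as the study's methods state, with at least 3 reads as expressed in a library and 2 such libraries as expressed in a region: expressed in 2 regions, or in 1 region and at least 6 libraries, or with at least 30 reads in all. This left 17050 of 52828.

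Ages and sexes were compared by an unpaired two-sided Student test assuming equal variance (16 against 16 libraries, on the TPM values; t-test in the text) with permutation tests of 100000 draws, and regions by two-sided exact permutation tests of 4 against 28 libraries. limma was fitted over all kept circRNAs, and over 3834 host gene sums above 0 in at least 8 libraries, on log2(TPM + 2.455), with Benjamini-Hochberg adjustment. Fold changes of low circRNAs are understated on this scale. The 2.455 TPM is the median of the libraries' smallest nonzero values. The covariates were region and sex for age, region and age for sex, and none for regions. Shares have exact Clopper-Pearson 95% intervals, and a 0 taken as no read allows up to 3 reads. Since a single read was also listed as 0, the limits given for levels and shares at 0 are somewhat too low. Libraries of a pool come from the same animals, so pools pair libraries across regions. The deviations of libraries of the same pool from their region means correlated at a median of 0.027 (112 pairs), against −0.0079 between pools. No 2 libraries were identical, and the largest correlation between libraries was 0.645.

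Named were each gene's sum and leading circRNA, those on the study's primer list, those past a call rule, and the 2 host genes most alike; the MAP2K4 5′ and 3′ ends and the circles compared in CB or next to a named circle were described after their values were seen. Members and lists were chosen with earlier results of these data known. Scripts were tested on simulated data. Python 3.11.15, SciPy 1.17.1, R 4.3.3 and limma 3.58.1 were used. Results for some genes of the lists are not reported here.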

Additional observations from a re-analysis of the deposited data

Results flagged for a closer look

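In each of 72 groups of 4 libraries (9 host genes in 8 regions) the highest or lowest library was compared with the rest by Dixon's criterion, which chance meets in about 1 of 20 groups. In 4 groups 1 library stood apart, each time because the other 3 were listed at 0. The MAP4K4 sum was 17.26 TPM in TC_10F and 51.83 TPM in DG_20M, the MAP4K5 sum was 40.63 TPM in CA1_20M, and the TAOK1 sum was 40.94 TPM in PCC_20F. DG_20M, CA1_20M and PCC_20F are among the 5 deeper libraries with over 95% clean reads, and the part of depth in these values was not tested.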

How the results depend on the processing

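Among 286 alternatives no difference of a named circle changed direction, and 198 were labelled unchanged. The direction of the minor MAP2K4 circle by sex could not change, since it was at 0 in all male libraries. For counts of members the label unchanged means a similar number, whichever members passed. Limma counts that stayed at 0 are among the 198. By the exact test for regions 2 members passed without the 5 libraries over 95% clean, but 0 were those of the main test. By limma for regions 1 member passed with the same total in every library, and it was not the main one. For age by the t-test the 1 member became 0 without the 5 libraries over 95% clean, 0 without region TC, 2 without region PFC, PCC, CA1 or CB, 3 without PC, 2 on the log2 scale, and 2 to 6 without 1 pool. The counts on the log2 scale and without 20F include the MAP4K5 circle chr7:113540936-113541115. It had passed the filter only through libraries of 20 y, so these calls are not independent of the filter. For sex the 2 members became 1 without the 5 libraries, 1 among circRNAs above 0 in at least 16 libraries, 1 without PFC, PC, OC or DG, 0 without PCC or CB, 3 with the same total in every library, without TC or CA1 or on the log2 scale, and 0 to 4 without 1 pool. With size factors there were 2, of which 1 was shared, since a MAP2K5 circle took the place of MAP3K7. Higher in a region by the exact test were 0 to 3 without 1 pool and 1 among circRNAs above 0 in at least 16 libraries. By limma for regions the 1 member became 2 without the 5 libraries, 0 with a pseudocount of 1 or 0.2455 TPM, 0 over all circRNAs, 2 among those above 0 in at least 16 libraries, and 0 to 2 without 1 pool. The causes were not tested. Paired by region and the other factor as a replicate block, age had 0 members and sex the same 2. The MAP2K4 circle among these 2 had entered only through female libraries, so its call under pairing is no support for a difference. With the pool as a block in the region fit the same 1 member passed. The limma counts for age, sex, age by sex and host gene sums were 0 in every alternative run. The MAP3K7 difference by sex ranged over t-test p of 0.00438 to 0.238, and the MAP2K5 difference by age over 0.00938 to 0.104. No range is given for the MAP2K4 circle by sex, since it passed the filter only through female libraries. A quasi-likelihood test of the counts was not run, since the deposited unit is not counts, and voom on the recovered reads stood in its place. Age by sex without 1 pool could not be fitted, because the 3 pools left cannot separate the interaction from age and sex. Depth limits the low genes most, as a 0 in CB_10F allows 56.2 TPM or somewhat more.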
